A study of Mus musculus with 346 samples.

Results

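Mesenchymal cells of the mouse pancreas at E14.5 (E for embryonic day) were set against the non-epithelial cells of the dorsal pancreatic bud at E10.5. All cells came from Tg(Prox1-EGFP) embryos (genotype Prox1-GFP in the labels), were sorted for green fluorescence and were read singly with Smart-seq2, which sequences full-length transcripts of 1 cell at a time. Every group therefore carries the transgene, driven by the regulatory sequence of Prox1, a homeobox factor of the early liver and pancreas, and no cell without it is compared. The E14.5 side holds the cells of plate 4A (labelled Pancreas, source "Pancreatic epithelium", otherwise untreated) with a Col1a1 level of 5 or more and an Epcam level under 2, on the scale log2(normalized reads + 1). The E10.5 side holds the cells of plates 2A and 2B (labelled Dorsal Pancreas, source "Dorsal Pancreatic Bud", otherwise untreated) with Epcam and Cldn6 both under 2. Col1a1 encodes a chain of type I collagen, while Epcam and Cldn6 encode proteins of epithelial cell contacts. The rule found 58 of 73 cells at E14.5 and 18 of 86 at E10.5 (5 on plate 2A and 13 on plate 2B), or 76 of the 346 cells of the series.

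Pancreatic mesenchyme surrounds the epithelial bud, builds its matrix and supplies growth factors, among them Fgf10, on which growth of the epithelial progenitors depends. Around the early dorsal bud it is a loose layer that it shares with the stomach and with the spleen, and transcription factors such as Isl1, Barx1, Nkx2-3 and Nkx3-2 mark and pattern its parts. Later it contains fibroblasts, pericytes and smooth muscle.

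Epcam, Cldn6 and Col1a1 chose the cells, so their values are given as a description. Col1a1 ran from 8.47 to 14.51 in the 58 E14.5 cells and was at 0 in the other 15 cells of the plate, so no cell lay near that limit. Epcam was at 0 in all 58, and 11 of the other 15 cells were at 2 or more. At E10.5, 17 of 18 cells had no read of either Epcam or Cldn6, and the larger of both levels in the remaining cell was 1.98. The nearest cells outside had 2.15, 5.01 and 5.48. Only the E14.5 side was chosen by Col1a1, and 6 of the 18 E10.5 cells would have met that limit too. Over all cells, the mean Col1a1 level was 11.64 at E14.5 and 2.73 at E10.5.

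The labels give no animal, and each group counts as 1 sample. No test was possible, and SDs and 95% intervals (exact, Clopper-Pearson) describe the cells and cover counting error only. Stage, plate and tissue labels move together, so stage and plate cannot be told apart. A gene is called detected in a cell from 5 normalized reads. A gene passed the filter if either side had it in 25% or more of its cells, and a difference is the E14.5 mean minus the E10.5 mean of log2(normalized reads + 1), which is not a fold change. It counts as higher at 2 or more and as lower at -2 or less. Where a gene was found in no cell, the limit used is 3 cells over the number read, 5.17% for 0 of 58 and 16.7% for 0 of 18. The exact interval reaches a little higher, as in the plot of transcription factors.

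The sets differed in how many genes each cell showed. The median was 3036 genes at E14.5 (2196 to 5028) and 6057 at E10.5 (5011 to 7149), from a median of 814690 and 957137 reads. Thinned to 500000 reads per cell, the medians were 2969 and 5842. The other cells of the same plates stood at 3828 and 5530. Those cells differ in type between the stages. Endocrine markers reached 3 or more in 12 of 15 at E14.5 and in 28 of 68 at E10.5. Pancreatic progenitor markers did so in 10 of 15 and 61 of 68. Values from the other cells below therefore do not set like cells against each other. The median share of mitochondrial reads was 1.86% at E14.5 (1.26 to 4.46) and 1.06% at E10.5 (0.465 to 2). The part of these measures in the differences below was not tested. Of 7876 genes that passed, 230 were higher at E14.5 (2.92%) and 3287 lower (41.7%), with a median difference of -1.71. In the other cells of the same plates, 2.94% of 8197 genes were higher and 20.9% lower. A low share of higher genes and a high share of lower ones is thus the background for every list below. With the log2 ratio of linear means, which weights the cells with the highest reads most, 494 genes were higher and 490 lower, and the median was 0.07. Over 246 genes that 90% or more of the cells showed on both sides, the median difference was -0.41, with 6 higher and 4 lower.

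**Figure D1:**
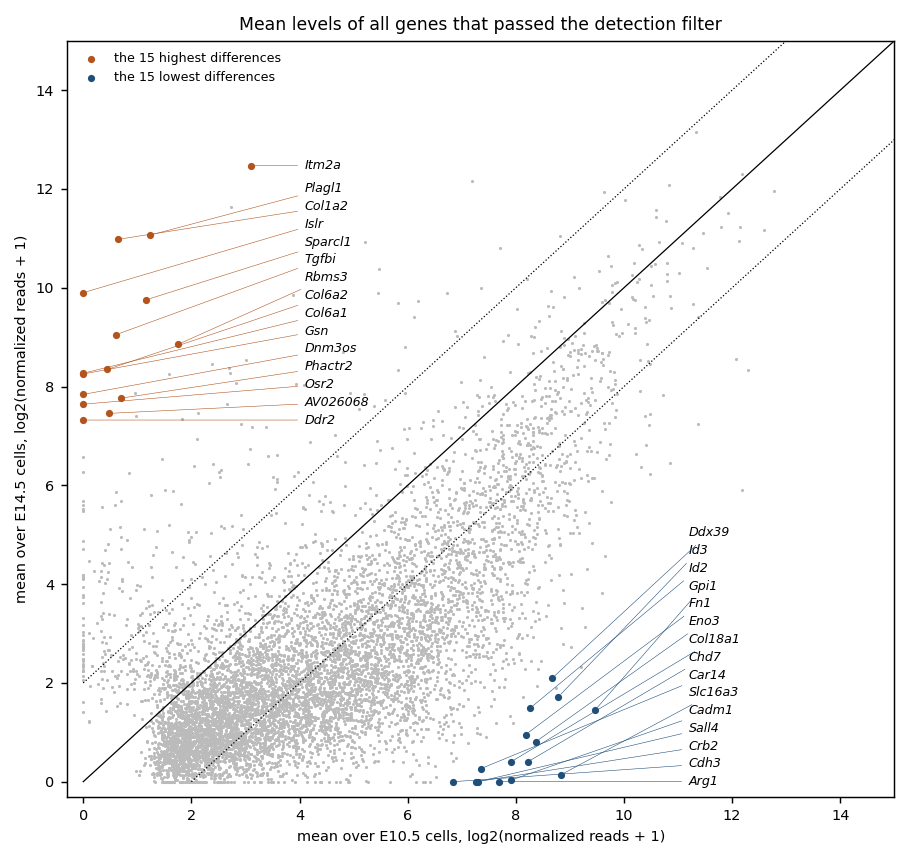
Mean level of each gene over the 18 E10.5 cells (horizontal axis) and the 58 E14.5 cells (vertical axis), both as log2(normalized reads + 1), for the 7876 genes that passed. The solid line marks equal means and the dotted lines a difference of 2 either way. Most of the cloud lies below the solid line (median difference -1.71). The 15 highest differences (orange), ranked without Col1a1 and the other genes left out, lie far above it.

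Mesenchyme markers were present in every E14.5 cell and in most E10.5 cells. All 58 E14.5 cells had at least 3 of 14 mesenchyme markers, with a median of 8 and a summed level of 30.3 to 110 per cell. At E10.5 it was 14 of 18 cells, with a median of 4 and a summed level of 10.5 to 39.8. Of the 12 that passed the filter 9 were higher at E14.5 and 1, Foxf1, lower, with a median of 5. The receptor Pdgfra, a general mesenchymal marker, was found on both sides (44 of 58 and 14 of 18 cells). Of 12 epithelial markers, only Spint2 was found at E14.5, in 1 cell, and the summed level was 0 to 7.94. At E10.5, 5 of 18 cells had 3 or more of them, from Krt8, Krt18, Krt19 and Spint2, with a summed level of 0 to 32.6, while Cdh1 and the other 7 were found in no cell. The E10.5 side is therefore called non-epithelial, after its rule, and not mesenchyme throughout. Of 13 pancreatic progenitor markers, 10 were found in no cell of the E14.5 side, among them Pdx1 and Ptf1a, and 10 in no cell of the E10.5 side, again with Pdx1 and Ptf1a. Every E10.5 cell nevertheless had 1 or 2 of the 13. Bex1 was found in 18 of 18 cells (5 of 58 at E14.5) and Sox9 in 11 of 18 (2 of 58). No cell of either side had 3 or more endocrine, blood or cardiac markers, and 1 E10.5 cell had 3 neural ones.

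A single cell stood apart on each side. An E10.5 cell of plate 2B had 11 of 11 endothelial markers, Pecam1 (9.75) and Kdr (9.38) among them, where no other E10.5 cell had more than 1. It had Foxf1 and Isl1 but neither Pdgfra nor Barx1. An E14.5 cell had 12 of 14 genes of pericytes and smooth muscle, where the next had 6. It carried Acta2 (10.96), Actg2 (8.34) and Myh11 (6.14), the contractile actins and myosin of smooth muscle, without Pdgfra or Osr2. Tagln and Cnn1, also contractile genes, were the 2 of the list not detected in it. Without the E10.5 endothelial cell 242 genes were higher and 3228 lower, and without the E14.5 contractile cell 235 and 3315. These cells were left out one at a time after the data had been seen.

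Among the genes ranked, the highest differences at E14.5 belonged to Col1a2, Islr, Plagl1 and Itm2a. The ranking left out the rule genes, Col1a1 among them, and mitochondrial, ribosomal protein, predicted, Xist and Y-linked genes. Col1a2, the second chain of type I collagen (chromosome 6, 4504814 to 4541544, GRCm38, plus strand), ran from 7.41 to 13.58 with a median of 11.22 at E14.5. At E10.5 it ran from 0 to 4.93 with a median of 0. The sets did not overlap, and the means were 10.98 ± 1.36 (SD, 58 cells) and 0.64 ± 1.41 (18 cells), a difference of 10.34. Islr, a secreted leucine-rich repeat protein of stromal cells (chromosome 9, 58156268 to 58204306, minus strand), had a median of 10.51 at E14.5 (0 to 12.73). It had no read in any E10.5 cell. It was found in 56 of 58 E14.5 cells and in 0 of 15 other cells of that plate. Itm2a, a membrane protein of type II topology (chromosome X, 107397099 to 107403376, minus strand), was between 10.53 and 14.41 in every E14.5 cell, with a median of 12.46. At E10.5 it was at most 8.99, with a median of 1.17, so these sets did not overlap either. Plagl1, an imprinted zinc finger transcription factor (chromosome 10, 13060504 to 13131694, plus strand), was found in 58 of 58 cells at E14.5 with a median of 11.10 (3.21 to 13.14). It was found in 3 of 18 cells at E10.5, where the highest level was 8.49, so 1 E14.5 cell fell within the E10.5 range.

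The other genes among the 15 highest were of several kinds. They included Col6a1 and Col6a2 (differences of 8.27 and 7.90), chains of type VI collagen, and Sparcl1 (8.59) and Tgfbi (8.45), secreted matrix proteins. Ddr2 (7.32) is a receptor for fibrillar collagen and Gsn (8.25) an actin-severing protein. Dnm3os (7.84) is a long RNA that hosts microRNAs. Osr2 (7.64), Rbms3 (7.10), Phactr2 (7.07) and AV026068 (6.98) completed them. Of these 11, 5 had no read in any of the 18 E10.5 cells (Col6a1, Ddr2, Dnm3os, Gsn and Osr2). The differences of such genes depend on the pseudocount of 1.

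**Figure D2:**
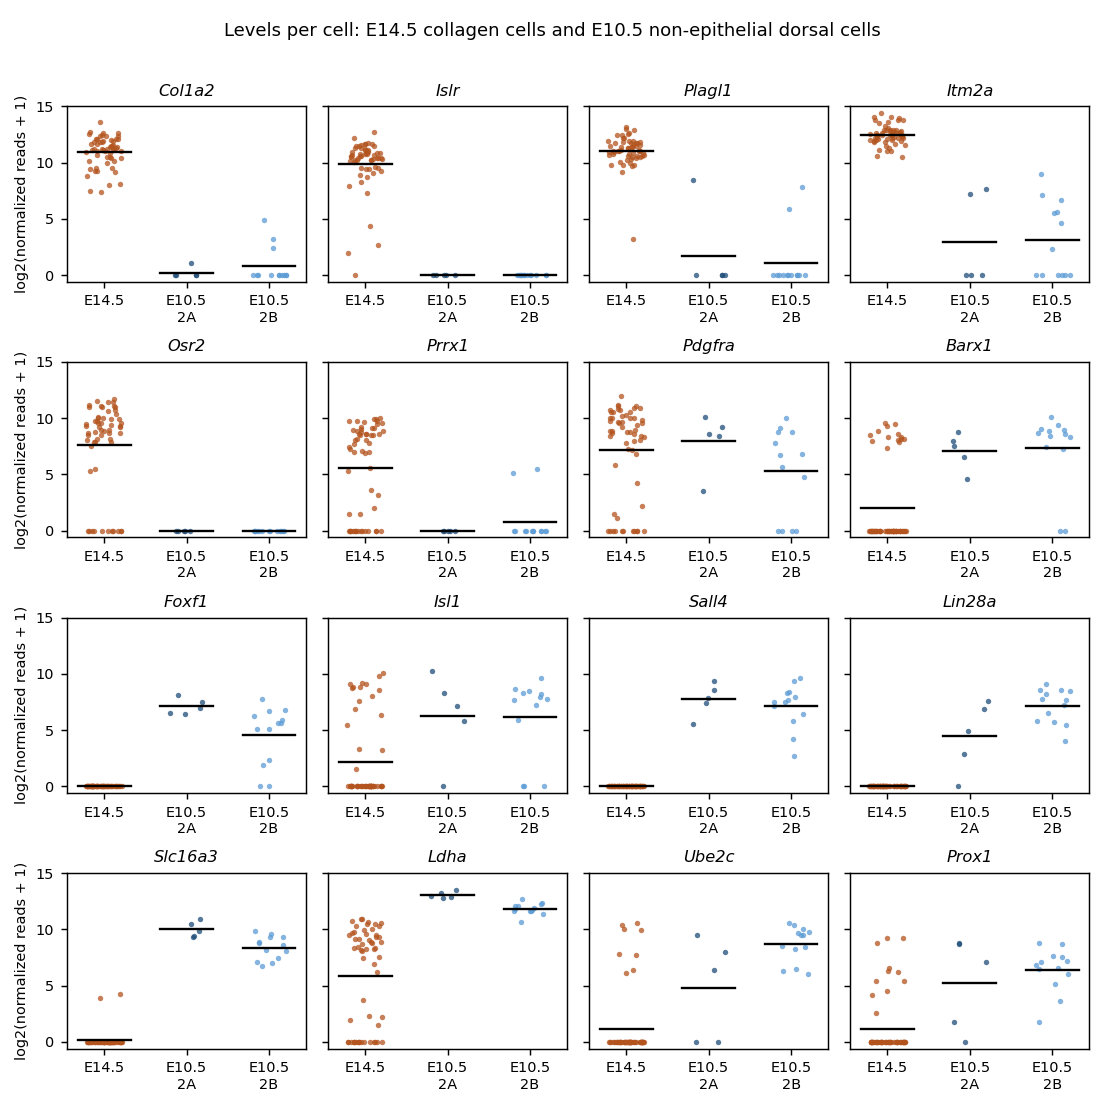
Level of 16 genes in each cell, log2(normalized reads + 1) on the vertical axis, for the 58 E14.5 cells and the 5 and 13 E10.5 cells of plates 2A and 2B. Points are cells and bars are means. Col1a2 and Itm2a separate the stages without overlap from above, Sall4 and Slc16a3 from below, and Pdgfra overlaps widely between both sides.

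Collagen chains split by kind. Of 23 chains, 16 passed, 8 were higher (50%) and 2 lower, with a median difference of 2.07. Col1a1 chose the E14.5 cells, and without it 7 of 15 were higher (46.7%) with a median of 1.91. With Col1a1 the median against plate 2A alone was 1.33 with the filter redone and 1.79 over the same 16 chains. It was 1.3 without cells with markers of other types. Higher were the fibrillar chains Col1a1, Col1a2, Col3a1, Col5a1 and Col5a2 and all 3 type VI chains on the list. Col3a1, the partner of type I collagen in loose tissue, was already present in 18 of 18 E10.5 cells, at 5.12 to 9.71 with a median of 7.05. At E14.5 it ran from 9.75 to 13.68 with a median of 12.20, just clear of the E10.5 cells. The opposite direction was seen for Col18a1, a basement membrane collagen, at 7.91 ± 1.67 in 18 of 18 E10.5 cells and 0.40 ± 1.75 with detection in 3 of 58 E14.5 cells. Col2a1 was the other lower chain. In the other cells of both plates the chains that passed had a median of -2.93, with 0 of 7 higher.

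Matrix glycoproteins and proteoglycans followed the fibrillar collagens. Of 25 that passed, 13 were higher (52%) and 3 lower, with a median of 2.17. Dcn, the small proteoglycan decorin that binds collagen fibrils, was found in 40 of 58 cells at E14.5 (median 8.85, highest 12.83) and in 0 of 18 at E10.5. Postn, the matricellular protein periostin, was found in 37 of 58 and again in 0 of 18. Both were present together in 27 E14.5 cells, Dcn alone in 13, Postn alone in 10 and neither in 8. The exception was Fn1, encoding fibronectin. It was found in 18 of 18 E10.5 cells at 6.23 to 10.79 (median 8.12) and in 7 of 58 E14.5 cells (mean 0.95 ± 2.54). Fn1 was also lower in the other cells of the plates, by 7.59 (1.5 against 9.09). Tnc and Fbln1 were the other lower members.

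The enzymes that process collagen went both ways. Of 18 that passed, 3 were higher (16.7%, against 2.92% of all genes) and 4 lower (22.2%, against 41.7%). The median was -0.20, against -1.71 over all genes. Higher were Adamts2 (4.15), which removes the N-terminal propeptide of procollagen and was found in 27 of 58 against 0 of 18 cells, Pcolce (3.18), which enhances removal of the C-terminal one, and Loxl1 (3.10), which crosslinks elastin and collagen. Lower were P4ha1 (-4.69) and P4ha2, subunits of prolyl hydroxylase, Plod3 (-2.63), a lysyl hydroxylase, and Loxl2 (-2.53). P4ha1 was lower by 5.88 and Loxl2 by 4.88 in the other cells of the plates. Among 13 proteases and inhibitors 4 were higher and 1 lower, with a median of 0.55. Mmp2, a gelatinase, was found in 49 of 58 cells at 8.79 ± 3.90 and in 14 of 18 at 5.94 ± 3.46. Its inhibitors Timp2 (24 of 58 against 1 of 18) and Timp3 (31 of 58 against 2 of 18) were higher with it.

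Genes of pericytes and smooth muscle gave 3 higher and 1 lower of 6 that passed, with a median of 1.86. Cd248, the endosialin of stromal cells and pericytes, was found in 56 of 58 E14.5 cells at a median of 10.34 and in 10 of 18 E10.5 cells at 5.28. Rgs5, a pericyte regulator of G protein signalling, was found in 35 of 58 against 2 of 18 cells. Kcnj8, a potassium channel subunit of pericytes, was found in 17 of 58 against 0 of 18. Abcc9, whose product joins that channel, was present in 13 E14.5 cells, and 8 of these had Kcnj8 as well. Notch3, a receptor of the same cells, was lower (-2.53), and Acta2 was found in 3 of 58 cells and Actg2 in 2.

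The transcription factors of gut and pancreas mesenchyme fell into 3 patterns. Of 45 listed, 32 passed, 10 were higher (31.3%, against 2.92% of all genes) and 8 lower (25%, against 41.7%). The median was 0.34, against -1.71 over all genes. Osr2, an odd-skipped zinc finger factor (chromosome 15, 35296098 to 35303305, plus strand), was detected in 47 of 58 E14.5 cells (81%, interval 68.6 to 90.1), with a median of 9.08 and a highest level of 11.73. No E10.5 cell had a read of it. Its relative Osr1 was found in 33 of 58 against 3 of 18 cells, and 28 E14.5 cells had both. Prrx1, a homeobox factor of limb and connective tissue mesenchyme, was found in 39 of 58 (67.2%, 53.7 to 79) against 2 of 18 cells (11.1%, 1.4 to 34.7). Tbx2, a T-box repressor, was found in 27 of 58 against 0 of 18. Hand2, a basic helix-loop-helix factor, was found in 35 of 58 against 3 of 18. Zeb1, Zeb2 and Tcf4, factors of the mesenchymal state, were higher by 2.42, 4.03 and 3.65. Against plate 2A alone, the difference was 1.25 for Zeb1 and 1.99 for Zeb2. None of Osr2, Prrx1 and Tbx2 was detected in the other 15 cells of plate 4A.

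The second pattern was the reverse. Foxf1, a forkhead factor that hedgehog signals maintain in gut mesenchyme, was found in 14 of 18 E10.5 cells (77.8%, 52.4 to 93.6) at a median of 6.10 and in 0 of 58 E14.5 cells. Barx1, a homeobox factor of stomach and spleen mesenchyme, was found in 16 of 18 E10.5 cells (88.9%, 65.3 to 98.6) with a median of 8.37. At E14.5 it was found in 14 of 58 (24.1%, 13.9 to 37.2), and the cells that had it held a mean of 8.48 against 8.16 at E10.5. Isl1, a LIM homeobox factor needed for the dorsal pancreatic mesenchyme, was found in 14 of 18 and 16 of 58 cells, with 7.95 and 7.70 in the cells that had it. For Barx1 and Isl1 the levels in positive cells were close, and the share of positive cells differed. Foxp1 and Foxp2, forkhead repressors, were lower by 5.32 and 5.71, and Meis2, Zfhx4 and Sox11 by 2.88, 3.60 and 4.00.

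The third pattern was a set of factors at similar levels. Meis1, a homeobox cofactor, had means of 7.79 ± 3.29 and 7.58 ± 2.22. Nr2f2, a nuclear receptor of mesenchyme and veins, had 6.96 ± 2.38 and 6.81 ± 1.02. Tcf21, a basic helix-loop-helix factor of visceral mesenchyme, was found in 19 of 58 and 6 of 18 cells. Against the median of -1.71 over all genes, these 3 differences (0.21, 0.15 and 0.71) stand on the high side. Meis1 and Nr2f2 were lower by 4.58 and 2.77 in the other cells of the plates.

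**Figure D3:**
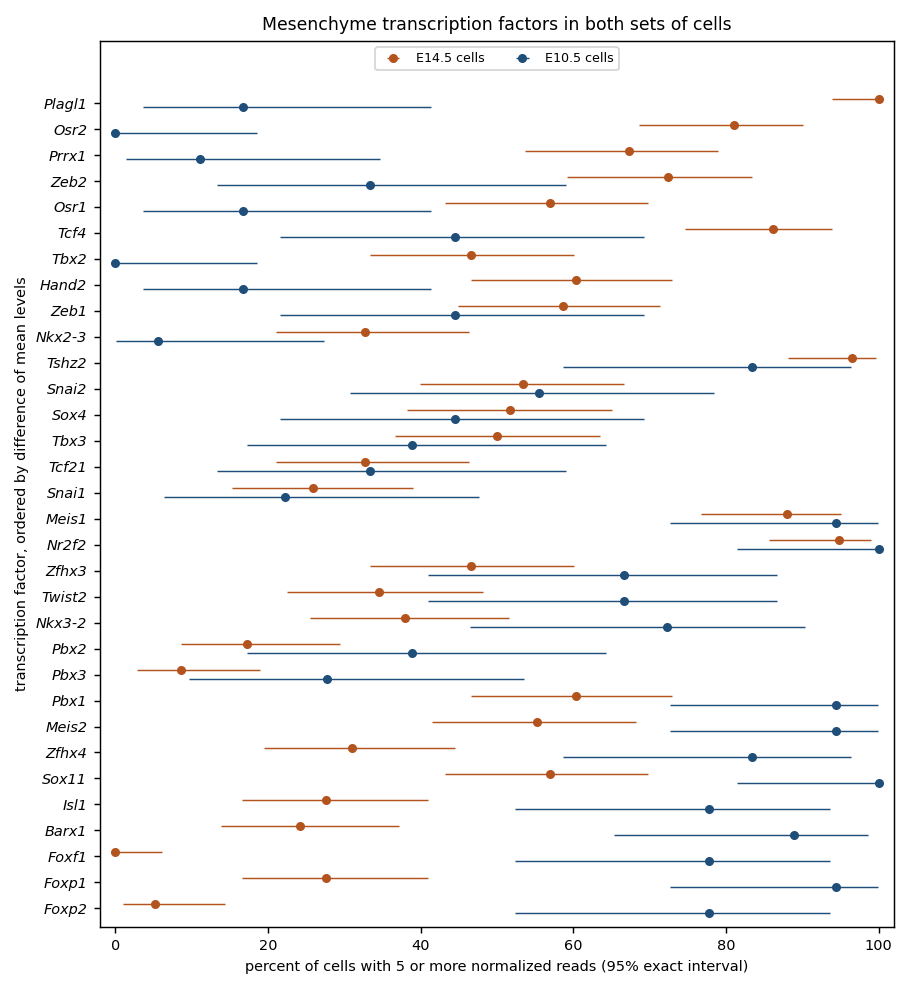
Percent of cells with 5 or more normalized reads (horizontal axis) for the 32 mesenchyme transcription factors that passed, ordered by their difference of means, in the 58 E14.5 cells (orange) and the 18 E10.5 cells (blue). Points are shares and bars exact 95% intervals for counting error. Osr2, Prrx1 and Tbx2 are common only in orange, Foxf1 and Foxp2 in blue, and Meis1 and Nr2f2 are high in both.

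The E14.5 cells were mixed in the regional factors. Of Osr2, Barx1 and Nkx2-3, 4 cells had none, 30 had 1, 22 had 2 and 2 had all 3. Osr2 was joined by Barx1 in 9 cells and by Nkx2-3 in 16, and 3 cells had Barx1 and Nkx2-3 together. In all, Osr2 was found in 47 and Barx1 in 14 of the 58 cells. Nkx2-3, a homeobox factor of spleen and gut mesenchyme, was found in 19 of 58 cells (32.8%, 21 to 46.3) and at E10.5 in 1 of 18. At E10.5, 2 cells had none of Osr2, Barx1 and Nkx2-3, 15 had 1 and 1 had 2. Pairs with Isl1 or Foxf1 were common there. Barx1 and Isl1 were both present in 13 of 18 cells, Barx1 and Foxf1 in 13, and Foxf1 and Isl1 in 12. At E14.5, 3 of 58 cells had both Isl1 and Barx1, which were found in 16 and 14 cells. Of the 16 Isl1 cells, 12 had Osr2, which 47 of all 58 cells had. Whether these genes were found together more or less often than their single shares give was not tested.

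Hox genes, which mark position along the body axis, were lower or alike. Of 13 that passed, 0 were higher and 6 lower (46.2%), a share near the 41.7% of all genes, with a median of -1.56. Hoxb1 stood out among them, with 15 of 18 E10.5 cells at a median of 7.61 and 0 of 58 E14.5 cells. Hoxc5 (17 of 18 against 9 of 58) and Hoxb5 (17 of 18 against 20 of 58) were next. Hoxa5 was the most common at E14.5 among those lower, in 34 of 58 cells.

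Of 9 Fgf genes that passed, 0 were higher and 5 lower (55.6%, against 41.7% of all genes), with a median of -2.75. Fgf10, the mesenchymal ligand, was found in 9 of 18 E10.5 cells (50%, 26 to 74), at up to 9.65, and in 0 of 58 E14.5 cells. Fgf9, a ligand better known from epithelia and mesothelium, was found in 13 of 18 and again in 0 of 58. Fgf1 and Fgf7, ligands that did not pass, were found in 2 and 1 of 58 E14.5 cells and in no E10.5 cell. The targets of the pathway were lower with them. Etv5 was found in 16 of 18 against 3 of 58 cells, Etv4 in 11 against 2 and Dusp6, a phosphatase that feeds back on Erk, in 16 against 6. Spry2, a feedback inhibitor, went the other way by less than 2, with 3 of 18 against 36 of 58 cells. Etv5, Etv4 and Dusp6 were lower by 3.31, 2.02 and 2.2 in the other cells of the plates.

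The hedgehog list had 4 of 8 genes lower (50%, near the 41.7% of all genes) and 1 higher. Ptch1, the receptor and itself a target, was found in 12 of 18 E10.5 cells (66.7%, 41 to 86.7) and in 0 of 58 E14.5 cells. Gli1, a transcription factor that reports the signal, was found in 11 of 18 against 1 of 58, and Gli2 in 13 of 18 against 15 of 58. Gas1, a coreceptor, was higher by 3.77 (48 of 58 against 8 of 18). Over the 8 genes the median was -2.11, which turned to 0.17 with the log2 ratio of linear means.

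The BMP and TGF-beta list had 14 members that passed, 1 higher (Tgfbr2) and 8 lower (57.1%, against 41.7% of all genes). Its median was -2.38, against -1.71 over all genes. Against plate 2A the list's median was -1.10 over these 14 members and -2.45 with the filter redone on plate 2A alone. It was -0.48 with the log2 ratio of linear means and -0.25 without the filter. The Id genes, inhibitors of differentiation that BMP signals induce, were its lowest members. Id3 had a median of 9.69 at E10.5 (0 to 11.29) and 0 at E14.5 (0 to 9.59), with detection in 17 of 18 and 12 of 58 cells. Id1 was found in 18 of 18 against 13 of 58, and Id2 in 17 of 18 against 12 of 58. The same genes were lower by 4.51, 3.53 and 3.41 in the other cells of the plates. Tgfb2, a ligand, was lower by 3.82, against 1.53 there.

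Of 12 Wnt genes, 2 were higher and 2 lower (16.7% each, against 2.92% and 41.7% of all genes), with a median of -0.28. Wnt5a, a ligand of the pathway that acts without beta-catenin, was found in 31 of 58 E14.5 cells (53.4%, 39.9 to 66.7) and 2 of 18 E10.5 cells (11.1%, 1.4 to 34.7). Sfrp1, a secreted inhibitor, had a median of 9.42 against 5.54. The receptors Fzd3 and Fzd7 were lower by 3.99 and 2.43. Against plate 2B alone, Fzd7 (-1.76) did not reach -2, and neither did Loxl2 (-1.52) and Notch3 (-1.86). Retinoid genes had a median of -2.37 over 7. Rdh10, which makes retinaldehyde, was higher (28 of 58 against 1 of 18 cells), while Stra6 (-3.96), Rara (-2.83) and Dhrs3 (-2.37) were lower.

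Of 18 genes in the list of insulin-like growth factors and imprinted genes 7 were higher (38.9%) and 3 lower, with a median of 0.66. Cdkn1c, a cyclin-dependent kinase inhibitor, was detected in 58 of 58 cells at 6.73 to 12.36 (median 10.31), and in 15 of 18 E10.5 cells at a median of 6.32 and a highest level of 9.34. Dlk1, a Notch ligand relative, was detected in 58 of 58 at 8.71 ± 0.96 against 4.81 ± 1.85, and Meg3, a long RNA of the same locus, in 58 of 58 at 9.70 ± 1.05 against 5.82 ± 2.70. For Meg3 the difference was 1.81 against plate 2A and 4.67 against plate 2B. In the other cells of the plates Meg3 was lower by 3.62, while Cdkn1c differed by 0.13. Igf1 was found in 38 of 58 against 4 of 18 cells. Igf2 was at 11.35 ± 0.63 and 10.77 ± 0.53, and H19 at 10.22 ± 1.68 and 9.08 ± 0.74, so the differences for both lay under 2. Igfbp5, a binding protein, was lower by 4.49.

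Guidance and stromal signals differed by member. Of 18 that passed, 8 were higher (44.4%, against 2.92% of all genes) and 6 lower (33.3%, against 41.7%), with a median of 0.17. Ptn, the growth factor pleiotrophin, was between 8.52 and 11.98 in every E14.5 cell (median 10.87) and at a median of 6.22 at E10.5, where the highest cell had 8.59. Epha3, an ephrin receptor, was found in 43 of 58 against 0 of 18 cells and Sema5a, a semaphorin, in 46 of 58 against 2 of 18. Lower were Kitl, the ligand of Kit (15 of 18 against 2 of 58), Robo1, the Slit receptor (14 of 18 against 11 of 58), and Pdgfc (10 of 18 against 3 of 58). Of 18 cytoskeleton and adhesion genes 1 was higher and 6 were lower (33.3%, against 41.7% of all genes). The median was -1.03, against -1.71 over all genes. Cdh11, the cadherin of mesenchyme, was higher by 2.66. Cadm1 (17 of 18 against 0 of 58), Cdh3 (16 of 18 against 0 of 58) and Cdh2 (15 of 18 against 16 of 58) were lower.

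Genes of the Lin28 pathway, which keeps early embryonic timing, and other genes of developmental timing formed 1 list, called Lin28 pathway for short. They were lower almost throughout. Of 14, 0 were higher and 13 lower (92.9%, against 41.7% of all genes), with a median of -4.94. Sall4, a zinc finger factor of stem and early progenitor cells (chromosome 2, 168748332 to 168767943, minus strand), was at 2.72 to 9.59 in 18 of 18 E10.5 cells, with a median of 7.6. It had no read in any E14.5 cell. Lin28a, the RNA-binding protein that blocks let-7 maturation, was detected in 17 of 18 E10.5 cells at a median of 7.06, and it had no read in any E14.5 cell either. Hmga1 (18 of 18 against 17 of 58), Mycn (15 of 18 against 4 of 58), Igf2bp1 (18 of 18 against 26 of 58) and Igf2bp2 (18 of 18 against 24 of 58) were lower as well. The other cells of the plates, which differ in type between the stages, had the same direction, with a median of -3.10 and 9 of 12 lower. There, Sall4 was found in 59 of 68 and 0 of 15 cells and Lin28a in 36 of 68 and 0 of 15. With the log2 ratio of linear means the list's median was -2.89.

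Fewer E14.5 cells than E10.5 cells carried cell cycle genes. All 21 genes of the G2/M list were lower, with a median of -5.34, and 16 of 21 S phase genes, with a median of -3.02. Per cell, 51 of 58 E14.5 cells had at most 7 of the 21 G2/M genes and the other 7 cells (12.1%, 4.99 to 23.3) had at least 15. At E10.5, 16 of 18 cells (88.9%, 65.3 to 98.6) had at least 11 and 2 had at most 2, both on plate 2A. No such gap was seen for S phase. At least 10 of its 21 genes were found in 22 of 58 E14.5 cells (37.9%, 25.5 to 51.6), 3 more had 8 or 9, and all 18 E10.5 cells had at least 14. The division at 10 genes was chosen after these values were seen. In the E14.5 cells that had them, the genes were as high as at E10.5. Ube2c, the ubiquitin-conjugating enzyme of the anaphase-promoting complex (chromosome 2, 164769898 to 164778822, plus strand), was found in 8 of 58 cells with a mean of 8.63 in those, and in 16 of 18 with 8.59. Ccnb1, cyclin B1, was found in 6 of 58 cells with 9.5 and in 15 of 18 with 8.59. With the log2 ratio of linear means the medians were -1.48 for G2/M and -0.63 for S phase. Among the other cells of the plates, 1 of 15 at E14.5 and 29 of 68 at E10.5 had at least 10 G2/M genes, and 20 of 21 of these genes were lower.

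**Figure D4:**
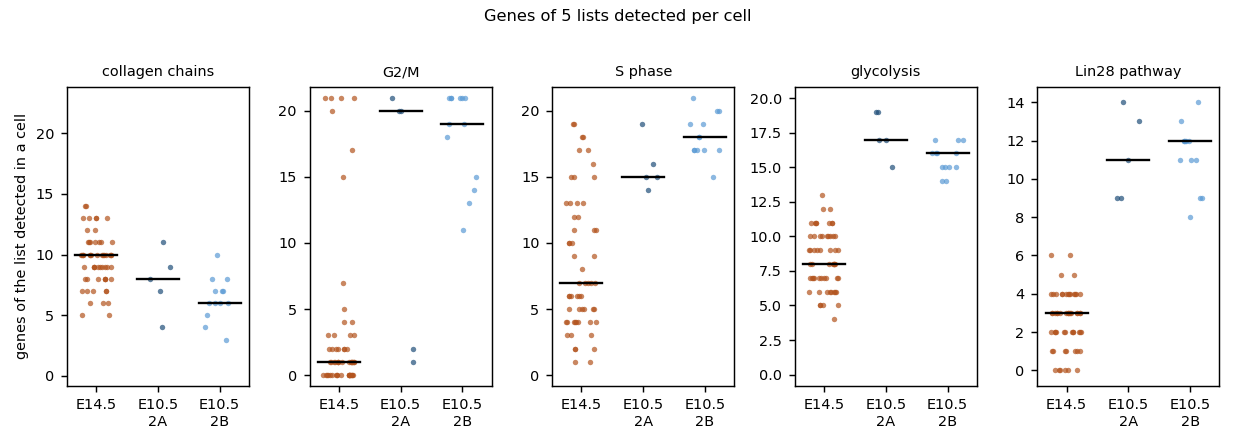
Number of genes of 5 lists detected in each cell (vertical axis), for the 58 E14.5 cells and the 5 and 13 E10.5 cells of plates 2A and 2B. Points are cells and bars medians. For G2/M, 7 E14.5 cells lie at 15 or more and 51 at 7 or fewer, while for glycolysis and the Lin28 pathway all E14.5 cells lie below all E10.5 cells.

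Glycolysis genes were lower at E14.5 both in the chosen cells and in the other cells of the plates. Of 20 genes, 15 were lower (75%) and 0 higher, with a median of -4.11, and -2.55 with the log2 ratio of linear means. In the other cells 18 of 20 were lower with a median of -4.30. Slc16a3, the lactate exporter MCT4 (chromosome 11, 120948480 to 120960868, plus strand), was at 6.78 to 10.91 in 18 of 18 E10.5 cells (median 9.08) and at most 4.30 in the E14.5 cells, where 2 of 58 had it. Ldha, lactate dehydrogenase A, ran from 10.66 to 13.52 at E10.5 and was found in 37 of 58 E14.5 cells at up to 10.94. In the other cells its mean was 1.42 at E14.5 and 12.10 at E10.5, a difference of -10.67 against -6.29 between the chosen cells. Gpi1 (-8.01), Pfkl (-6.15), Slc2a1 (-5.90) and Pgk1 (-5.13), which act in glucose uptake and glycolysis, were lower with them.

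Every G2/M gene was lower, and a glycolysis gene was among the 15 lowest differences. The promoter of the lowest member of each of these lists is therefore shown (RefSeq, GRCm38.p6, 300 bases around the start, 5′ to 3′ on the gene's strand). Capitals mark TTTGAA or its reverse complement TTCAAA, the core of the cell cycle homology region, in Ube2c (chr2:164769679-164769978, plus strand). In Slc16a3 (chr11:120948817-120949116, plus strand) they mark ACGTG or its reverse complement CACGT, the core of the hypoxia response element, which also lies within the E-box CACGTG.
Ube2c: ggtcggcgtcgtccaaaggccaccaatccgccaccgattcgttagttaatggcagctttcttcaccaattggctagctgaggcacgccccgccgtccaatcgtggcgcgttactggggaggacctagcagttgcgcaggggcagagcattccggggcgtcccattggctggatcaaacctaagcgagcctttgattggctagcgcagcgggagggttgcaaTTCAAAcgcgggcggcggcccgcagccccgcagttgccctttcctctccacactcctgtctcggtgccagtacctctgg
Slc16a3: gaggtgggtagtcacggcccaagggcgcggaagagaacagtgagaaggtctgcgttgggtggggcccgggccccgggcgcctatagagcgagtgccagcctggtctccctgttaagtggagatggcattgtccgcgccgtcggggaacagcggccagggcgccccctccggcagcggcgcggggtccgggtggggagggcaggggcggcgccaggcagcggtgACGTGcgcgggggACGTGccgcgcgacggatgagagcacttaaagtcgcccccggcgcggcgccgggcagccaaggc
Both strands were searched in the same window of every gene in the promoter table. ACGTG was found for 13 of 19 matched glycolysis genes (68.4%) against 21.8% of 27025 genes. TTTGAA was found for 13 of 18 matched G2/M genes (72.2%) against 20.2%. Among the G2/M genes, Ccnb1, Bub1, Cenpe, Birc5 and Nusap1 had no TTTGAA in this window. Among the glycolysis genes, Gpi1, Pfkl, Pfkp, Tpi1, Eno1 and Ldhb had no ACGTG. Both motifs were picked with the direction of the lists known, and a match describes the letters only.

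**Figure D5:**
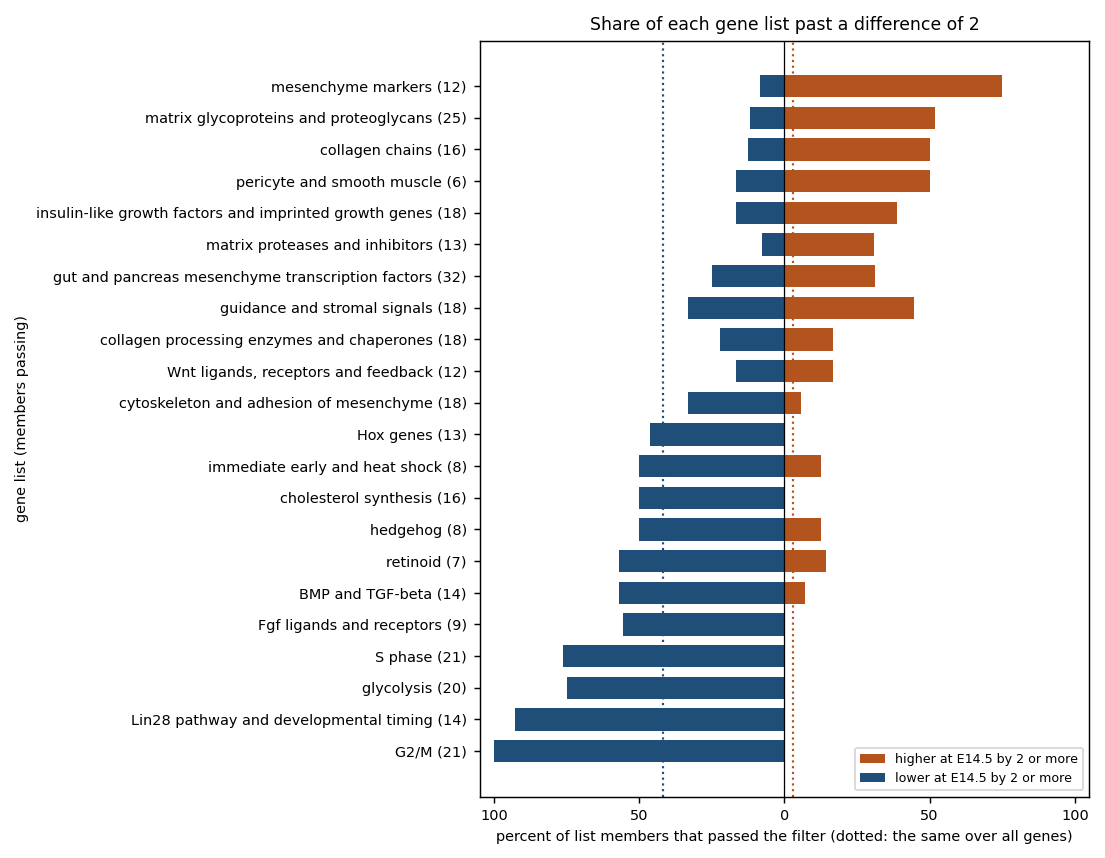
Percent of the members of each gene list that passed the filter and were higher (orange, right) or lower (blue, left) at E14.5 by 2 or more, with the number passing in brackets. Dotted lines mark the same shares over all 7876 genes, 2.92% and 41.7%. The higher share is 75% for mesenchyme markers, 52% for matrix glycoproteins and 50% for collagens (46.7% without the rule gene Col1a1), and all 21 G2/M genes are lower.

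The 15 lowest differences included Slc16a3, Gpi1, Cadm1 (-7.88) and Chd7. Chd7, a chromatin remodeller, was at 7.09 to 9.41 in 18 of 18 E10.5 cells and found in 4 of 58 E14.5 cells. It differed by -0.64 in the other cells of the plates, against -7.82 here. Crb2, an apical polarity protein also needed in mesoderm, was found in 15 of 18 cells at a median of 8.55 against 0 of 58, and differed by -0.25 in the other cells. Arg1, which cleaves arginine, was found in 16 of 18 against 0 of 58 cells, but also in 62 of 68 other E10.5 cells against 2 of 15 at E14.5. Eno3 (-7.56), an enolase, Car14 (-7.09), a carbonic anhydrase, and Ddx39 (-6.58), an RNA helicase, were among them too. Whether a difference is larger in the chosen cells than in the others could not be tested.

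The 2 dorsal plates differed for genes of sterol synthesis and heat shock. Against plate 2B, 16 sterol genes had a median of -2.54, against plate 2A of 0.01 and against both of -2.01. Fdft1, squalene synthase, differed by 0.74 from plate 2A and by -3.97 from plate 2B, and Sqle, squalene epoxidase, by 0.51 and -4.07. Over both plates, 8 of 16 sterol genes and 4 of 8 immediate early and heat shock genes were lower. Each share is 50%, near the 41.7% of all genes. In the latter list Jun was higher (3.76). Hsph1 and Dnajb1, heat shock chaperones, differed by -0.94 and 0.82 from plate 2A and by -6.44 and -3.62 from plate 2B. For these genes the values from both plates together describe mainly plate 2B. The keratin Krt18 was also lower against plate 2B (-6.47) than against plate 2A (-1.91).

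Prox1, on whose regulatory sequence the sort rests, was itself low in the E14.5 cells. It was found in 10 of 58 (17.2%, 8.6 to 29.4), with a mean of 1.18 ± 2.62. At E10.5 it was found in 15 of 18 (83.3%, 58.6 to 96.4) with 6.10 ± 2.64. The other cells of the same plates had means of 10.15 and 9.67. Among cells with Prox1 detected (10 and 15), a choice made after the data had been seen, 380 genes were higher and 3144 lower. Of the 230 genes higher over all cells, 186 were higher there too, as were all 15 of the highest. The cells with Prox1 are part of the sets that gave these genes, so much of this overlap was fixed in advance.

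Liver cells at E10.5 with Epcam and Afp under 2 (30 of 78) give a second set of non-epithelial cells of that stage. It is a mixed set, in which 17 of 30 cells had 3 or more mesenchyme markers. Cardiac markers reached 3 or more in 6 cells, endothelial ones in 3 and blood ones in 1. Col1a2 was found in 18 of the 30 liver cells and Plagl1 in 17, against 2 and 3 of the 18 dorsal cells, and Itm2a in 22. Osr2, Prrx1 and Hoxb1 were found in 0 of 30, Barx1 in 1 and Pdgfra in 13. Sall4 was found in 1 of 30 and Lin28a in 0, against 18 and 17 of 18 dorsal cells of the same stage. The liver cells showed a median of 2911 genes per cell, close to the 3036 of the E14.5 cells, from a median of 2354447 reads.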

How the data were processed

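Cells carrying green fluorescent protein were sorted into plates and prepared with Nextera XT, per the labels. The submitters' processing notes name GRCm38, Cuffdiff 2.2.1, Cufflinks and STAR 2.5.3, with no role for each. Counter, annotation and cell filters were not given in the sources used here. For 20474 genes and 346 cells, the authors deposited 1 table of log2 values. Undoing the log2 and subtracting 1 gave multiples of 1 factor per cell, with 19 of 1647530 values off a whole number of reads by over 0.01, so the deposited values are read as log2(reads / size factor + 1). Empty entries were set to 0.

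Each cell is 1 library. No members held identical values, and the highest correlation between 2 of them was 0.68. No doublet caller was run, since cells were sorted singly into wells. Members and lists were chosen with earlier results of these data known. The text names the 15 highest and 15 lowest differences, ranked by the smaller of those from plates 2A and 2B. Mitochondrial, ribosomal protein, predicted (Gm and Rik), Xist and Y-linked genes and the rule genes were left out of that ranking. The text also names members of the lists, from up to 6 with the largest differences in each, and the mesenchyme transcription factors that passed. Others named here (such as Pdgfra, Abcc9, Igf2, H19 and Acta2) were chosen after their values were seen. There were 31 lists with 560 genes, and 16 of these are not analysed here. Since the labels name no animal, no test was run. The steps were tested on simulated data with the same detection rates on both sides. That test does not cover the difference in genes found per cell. Alternatives covered pseudocount, scaling, filter, plate, rule limits, cells kept and depth. Coordinates are from GENCODE M21. Tools were python 3.11.15, numpy 2.4.6, pandas 2.3.3, scipy 1.17.1 and matplotlib 3.10.9.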

Additional observations from a re-analysis of the deposited data

How the results depend on the processing

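Differences, counts and medians were recomputed under 19 other settings, and shares of cells with other limits of detection. Of these, leaving out the E10.5 endothelial cell, leaving out the E14.5 contractile cell and keeping cells with Prox1 were added after seeing the data. With a pseudocount of 0.1, 5221 genes were lower, and the medians were 6.40 for mesenchyme markers, -3.73 for BMP and TGF-beta and -6.90 for the Lin28 pathway. With a pseudocount of 10, 126 genes were higher and 752 lower, and the medians were 3.24 for mesenchyme markers, -1.15 for BMP and TGF-beta, -2.84 for the Lin28 pathway and -3.20 for glycolysis. With the log2 ratio of linear means, 494 were higher and 490 lower, and the share of higher genes among both went from 6.54% to 50.2%. The medians were then 7.14 for mesenchyme markers, 3.14 for collagen chains, 1.15 for transcription factors, -0.48 for BMP and TGF-beta, -2.89 for the Lin28 pathway, -0.63 for S phase, -1.48 for G2/M and -2.55 for glycolysis. The hedgehog median turned to 0.17. Without the filter the BMP and TGF-beta median was -0.25. Among genes detected in 50% of the cells of 1 side, 147 were higher and that median was -3.82. Against plate 2A alone the glycolysis median was -5.45, and among cells with Prox1 380 genes were higher. The causes were not tested. Moves of over 1.5 times but under 1 SD between cells were seen for the medians of collagen chains (1.33 against plate 2A alone and 1.3 without cells with markers of other types) and, with a pseudocount of 10, of S phase (-1.76) and G2/M (-3.23). The median of transcription factors, 0.34, ran from 0.06 to 1.15. The medians nearer 0 of collagen processing, Wnt, guidance, cytoskeleton and immediate early genes changed sign under 1 or more settings. Over the genes that passed with both plates, the BMP and TGF-beta median was -1.10 against plate 2A, and -2.45 with the filter redone. The 15 highest genes stayed at 2 or more under every setting run, and the 15 lowest at -2 or less, except 1 of the lowest with the log2 ratio of linear means. Median-of-ratios scaling moved the median of all genes from -1.71 to -1.89. No paired analysis was possible because each side counts as 1 sample and wells carry no replicate number. Depth limits what a 0 shows: rare transcripts can be missed in cells with few reads.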
